A study of Mus with 18 samples.

Results

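The interferon-stimulated antiviral genes described here are 51 genes of the mouse, all named in a list and found by their symbols among the 35510 genes of the count table. The cells were RAW264.7, a macrophage-like line of mouse origin, and their RNA was sequenced in 6 groups of 3 libraries each. One group received no treatment and another received LPS, the endotoxin of Gram-negative bacteria that activates macrophages through the receptor TLR4. The other 4 groups received LPS and then a polymer, either POx-SA or a PPLG polymer (PPLG-SA, PPLG-4V-SA or PPLG-2V-SA), which the series describes as sialic acid polymers aimed at Siglecs, a family of sialic acid-binding receptors of immune cells. Neither doses, times nor the meaning of the codes are given, no group received a polymer without LPS, and all groups are of the same line, so values are set side by side by label only. In what follows "with POx-SA" and the like always means LPS followed by that polymer.

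Interferons are secreted proteins that signal through cell-surface receptors, kinases of the JAK family and transcription factors such as IRF9 to switch on a large set of genes in the responding cell. In macrophages, LPS can start this route from TLR4 through the adaptor TRIF, encoded by Ticam1, and the factor IRF3, which induces interferon beta. The products of the induced genes sense foreign RNA and DNA, degrade or mark it, block viral entry and budding, and feed back on the interferon receptor.

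Total counts per library were 9755591 to 19759549. All 51 members passed the filter on low counts and entered a fit over 13482 genes, and the least counted member had 315 counts over the 18 libraries. Levels are CPM, the reads of a gene scaled to a common library size, given for libraries in the order of their replicate numbers or as mean ± SD (n = 3), and changes are log2 fold changes ± SE from edgeR. A gene is said to rise, fall or be called only where its adjusted p was below 0.05 over all tested genes in that comparison, and p-values were not adjusted further over the 13 comparisons. Whether replicates came from separate cultures is not stated, so each p reflects the spread among these libraries, which may be technical. Of 12 macrophage markers, all had a mean of at least 1 CPM in every group except with PPLG-2V-SA, where 11 had, and their summed level was 12088 to 13212 CPM without treatment and 4149 to 8423 CPM in the other libraries. Lyz2 held the largest part of this sum without treatment, at a mean of 7742 CPM, and was at 850 with PPLG-SA. Other macrophage markers differed in both directions between these 2 groups, as with Adgre1 at 65.4 and 585 CPM and Cd14 at 1519 and 571. The summed level of 9 neutrophil and mast cell markers went from 2396 to 2655 CPM without treatment to 149 to 255 with LPS, 36.1 to 63.6 with POx-SA and at most 0.465 with the PPLG polymers. Nearly all of this sum was S100a8, at means of 2492 CPM without treatment and 191 with LPS, while S100a9 was at 9.16 and 2.05. Ly6g, Camp, Ngp, Ltf, Cma1, Mcpt4 and Cpa3 had at most 7 reads each over all 18 libraries. The sums for dendritic cell, lymphocyte, fibroblast and epithelial or endothelial markers stayed at or below 11.6 CPM in every library. In bulk RNA a change in the share of cells and a change in RNA per cell cannot be told apart, and the part of these markers in the results was not tested. LPS replicate 3 and POx-SA replicate 3 stood apart from their groups in the same way, with a correlation of their deviations of 0.842 over 13482 genes. Some of the results that depend on them are given with and without them. Reads of Dtx3l and Parp9, and of Ifi27 and Ifi27l2a, may be shared because these genes overlap in the RefSeq annotation and the strand setting of the counting is not given in the sources used here. Values of close copies, such as Ifit3 and Ifit3b, Oas1a and Oas1g, Phf11b and Phf11d, or Ifi203 and Ifi204, are uncertain because reads can match both copies.

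The members were measured over a wide range of levels. On the deposited FPKM scale, which accounts for gene length, the mean over 18 libraries was 100 or more for 7 members, from 10 to 100 for 32 and below 10 for 12. Ifitm3, which blocks fusion of viral and endosomal membranes, led with a mean level of 1077 FPKM, followed by Bst2, the virion tether tetherin, at 409 FPKM and Ifi27l2a, a small hydrophobic interferon-induced protein, at 224 FPKM. Summed over all members, the level was 3240.1 ± 80.9 CPM without treatment and 5165 ± 114 CPM with LPS. With LPS and POx-SA the sum was 3159 ± 97.5 CPM, a level whose libraries overlapped those without treatment. This overlap depended on the scaling of the libraries. As a plain share of each library's counts, the members took 0.258 to 0.270% without treatment. That share was 0.279 to 0.310% with POx-SA, without overlap. With the PPLG polymers it was 5594 ± 74.4 CPM for PPLG-SA, 5461 ± 118 CPM for PPLG-2V-SA and 6222 ± 76.0 CPM for PPLG-4V-SA, and all 9 of these libraries lay above the 3 with LPS alone. By group mean of CPM, 21 members were highest with PPLG-4V-SA, 14 with PPLG-2V-SA, 8 with LPS alone, 7 with PPLG-SA, 1 without treatment and 0 with POx-SA. The lowest mean CPM was that without treatment for 25 members, that with POx-SA for 23, that with PPLG-2V-SA for 2 and that with PPLG-SA for 1. These tallies depended on the scale. By FPKM, Isg15, Rsad2 and Xaf1 were highest with PPLG-4V-SA in place of LPS, and Shisa5 with LPS in place of untreated. Zbp1, Oasl2, Cmpk2 and Ifi44 were lowest by FPKM without treatment in place of POx-SA.

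**Figure D1:**
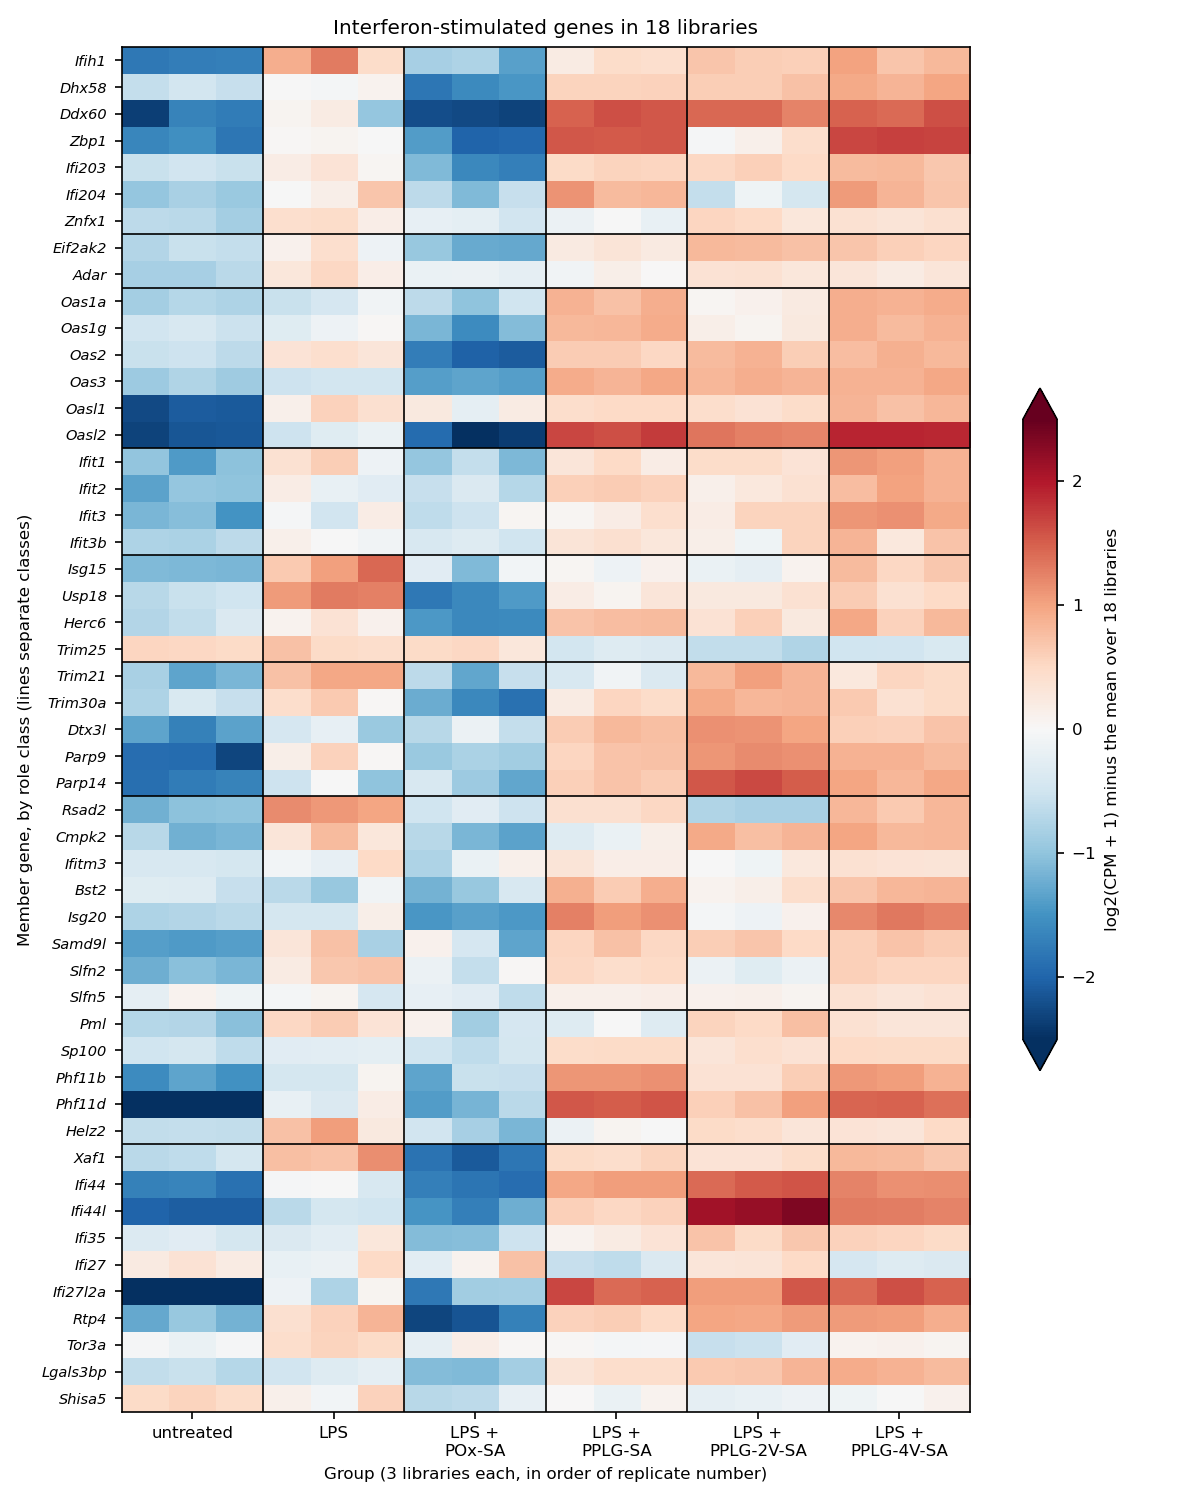
Level of each of the 51 members in each of the 18 libraries, as log2(CPM + 1) minus that gene's mean over all libraries; columns are libraries in groups of 3, rows are genes, and horizontal lines separate the role classes. Untreated and POx-SA libraries are mostly blue (below the gene's mean), the PPLG libraries mostly red, and within the PPLG-2V-SA columns Ifi44l is dark red while Rsad2 is blue.

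The first comparison asked how LPS alone moved these genes. 45 of 51 members rose and 0 fell, against 30.8% of tested genes that rose and 28.4% that fell. The median log2 fold change over members was 1.33, and over all tested genes it was 0.02. The members with the largest rises included Trim21, the cytosolic receptor for antibody-coated viruses, at 2.85 ± 0.32, adjusted p = 8.55e-07, and Ifih1, which encodes the RNA sensor MDA5, at 2.74 ± 0.19, adjusted p = 4.15e-09. Trim21, at low levels, was at 1.39 on log2(FPKM + 1), a scale that pulls low genes towards 0. All members of 6 of the 9 role classes rose, namely the sensors, the kinase and editing enzyme, the oligoadenylate synthetases, the IFIT genes, the ubiquitin ligases with the PARPs, and the genes of nuclear bodies. The 6 members that were not called were Trim25, Bst2, Slfn5, Ifi35, Ifi27 and Shisa5, with log2 fold changes from -0.26 to 0.28. Without LPS replicate 3 and POx-SA replicate 3 together, 3 of them, Bst2, Ifi27 and Shisa5, were called as fallen, with log2 fold changes of -0.41, -0.42 and -0.46, and without LPS replicate 3 alone Shisa5 was, at -0.46. On log2(FPKM + 1), the deposited values scaled to gene length, 47 members rose and 0 fell, as did 5927 and 2304 of all genes in place of 4149 and 3833, and the median over all genes was 0.22, so directions here are relative to the scaling of counts.

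POx-SA after LPS was set against LPS alone. 41 of 51 members fell and 0 rose, where 24.1% of tested genes fell and 22.2% rose, and the median was -1.07 over members and 0.00 over all tested genes. The largest falls were those of Xaf1, a pro-apoptotic zinc finger protein, at -2.97 ± 0.13, adjusted p = 4.41e-11, and Ddx60, a helicase linked to RNA sensing, at -2.86 ± 0.31, adjusted p = 9.01e-07. Usp18, the protease that removes ISG15 from proteins, came next at -2.85 ± 0.12, adjusted p = 1.55e-11. The value of Ddx60, a gene of low level, was -1.02 on log2(FPKM + 1), while those of Xaf1 and Usp18 stayed within -3.20 to -2.73 in all alternatives run. All 7 sensors, both enzymes acting on double-stranded RNA and all 5 nuclear genes fell. So did 9 of the 10 genes without a shared role, 5 of 6 oligoadenylate synthetases, 3 of 4 IFIT genes, 3 of 4 genes of the ISG15 system, 3 of 5 ligases and PARPs and 4 of 8 restriction factors. The 10 members not called were Oasl1, Ifit3, Trim25, Dtx3l, Parp14, Ifitm3, Bst2, Samd9l, Slfn5 and Ifi27, with values from -0.66 to 0.16. Same-numbered libraries of these groups deviated together in all 3 pairs. Each deviation is from a mean of 3 libraries, so these pairs are not separate signs of pairing. With the replicate number as a block 41 members fell and 0 rose. In a fit of these 2 groups alone 34 members fell and 0 rose, and of 12418 tested genes 1726 fell and 1335 rose. On log2(FPKM + 1) 0 members rose and 44 fell, as did 2232 and 3934 of all genes in place of 2992 and 3247.

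The 3 PPLG polymers were each set against the same 3 LPS libraries, so their results share that reference. With PPLG-SA 24 members rose and 14 fell (background 29.2% and 30.7%, member median 0.34, median of all tested genes 0.00). With PPLG-2V-SA 25 rose and 9 fell (background 30.8% and 30.2%, member median 0.35, all tested genes 0.03). With PPLG-4V-SA 32 rose and 4 fell (background 28.0% and 27.1%, member median 0.58, all tested genes 0.02). The share of members that fell with PPLG-SA, 14 of 51, was close to its background. On log2(FPKM + 1) the counts higher and lower were 31 and 7 members and 5178 and 3082 of all genes (4152 and 4070 by counts) with PPLG-2V-SA, and 34 and 3 members and 4810 and 2723 of all genes (3775 and 3651 by counts) with PPLG-4V-SA. By role, the oligoadenylate synthetases moved upward in each of these comparisons, with 5 of 6 called higher with PPLG-SA, 5 with PPLG-2V-SA and 6 with PPLG-4V-SA, and none lower. The 4 members of the ISG15 system were split, with 3 lower and 1 higher with PPLG-SA, 3 lower and 0 higher with PPLG-2V-SA, and 2 lower and 1 higher with PPLG-4V-SA, the higher one being Herc6 each time. Among the sensors 5 of 7 rose with PPLG-SA, 3 with PPLG-2V-SA and 5 with PPLG-4V-SA, while 2, 1 and 0 fell. All 4 IFIT genes rose with PPLG-4V-SA, against 2 with PPLG-2V-SA and 1 with PPLG-SA.

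**Figure D2:**
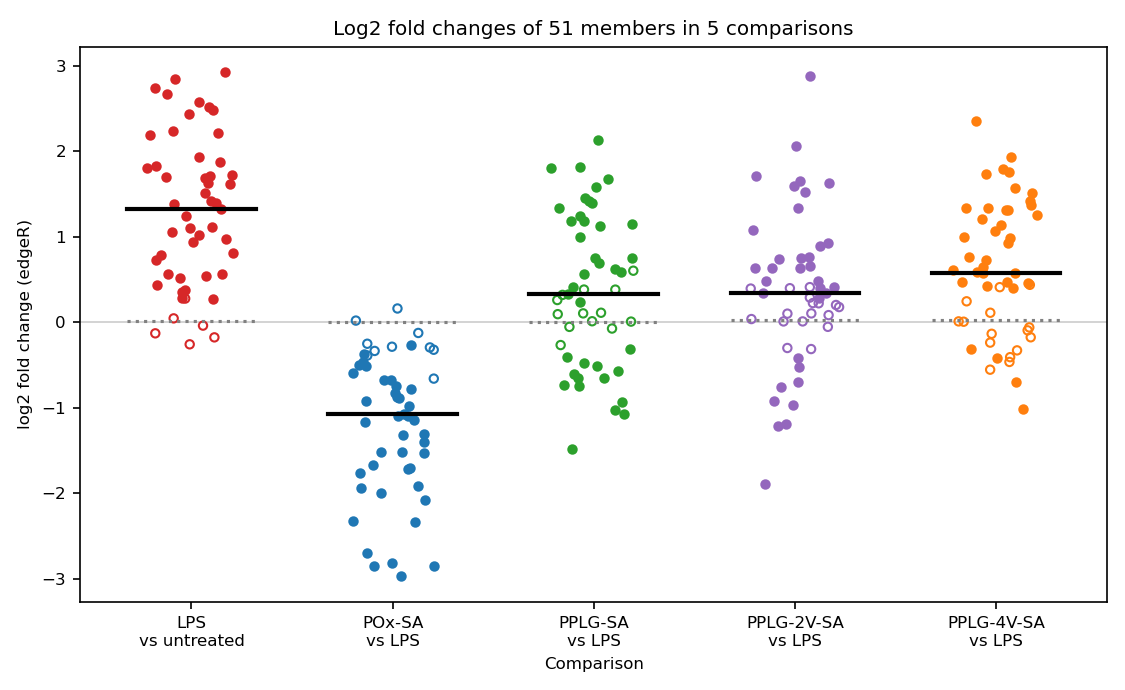
Log2 fold changes of the 51 members (1 point each; horizontal position within a column is only spread for legibility) for LPS against untreated and for each polymer against LPS alone; filled points are called at an adjusted p below 0.05, black bars are member medians and dotted lines the median of all tested genes. The members lie mostly above 0 after LPS (median 1.33) and mostly below 0 with POx-SA (median -1.07), and they fan out on both sides of 0 with PPLG-SA and PPLG-2V-SA.

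Among the nucleic acid sensors, Ifi203 and Ifi204 belong to the HIN-200 family of DNA-binding proteins and Zbp1 senses nucleic acids in the Z form and can trigger cell death. Zbp1 stood at 3.63, 3.97 and 3.13 CPM without treatment, 13.7, 14.1 and 13.2 with LPS alone and 4.45, 2.57 and 2.68 with POx-SA. It reached 41.4, 40.3 and 40.8 CPM with PPLG-SA, 13.1, 14.6 and 18.5 with PPLG-2V-SA and 44.5, 46.0 and 45.5 with PPLG-4V-SA. The libraries with PPLG-SA and PPLG-4V-SA were the highest and overlapped no other group, those with PPLG-2V-SA overlapped LPS alone, and those with POx-SA overlapped the untreated ones. The log2 fold change against LPS was -2.08 ± 0.17, adjusted p = 4.82e-08 with POx-SA, 1.58 ± 0.15, adjusted p = 9.20e-08 with PPLG-SA, 0.18 ± 0.15, adjusted p = 0.307 with PPLG-2V-SA and 1.73 ± 0.15, adjusted p = 3.20e-08 with PPLG-4V-SA. With PPLG-2V-SA it was called higher on log2(FPKM + 1), at 0.54, adjusted p = 0.00947. Ifi204, related to the human DNA sensor IFI16, was at 22.2, 24.8 and 22.7 CPM without treatment, 43.5, 48.8 and 72.2 with LPS alone and 27.8, 19.9 and 29.3 with POx-SA. The PPLG libraries were at 97.5, 76.9 and 79.3 CPM with PPLG-SA, 28.8, 40.7 and 32.2 with PPLG-2V-SA and 93.2, 79.9 and 72.4 with PPLG-4V-SA. It was high with PPLG-SA and PPLG-4V-SA, whose libraries all lay above LPS alone, and with PPLG-2V-SA it lay below LPS alone without overlap (log2 fold change -0.69 ± 0.18, adjusted p = 0.00348, and on log2(FPKM + 1) -0.29, adjusted p = 0.0989). Ifi203 was at 75.4, 79.3 and 75.3 CPM without treatment, 126, 141 and 115 with LPS alone and 51.003, 35.5 and 33.1 with POx-SA. In the PPLG libraries it was at 156, 164 and 161 CPM with PPLG-SA, 159.6, 167 and 156 with PPLG-2V-SA and 194, 196 and 178 with PPLG-4V-SA. Its POx-SA libraries were the lowest of all 18 and its PPLG libraries the highest, without overlap with LPS alone in either direction (log2 fold change -1.67 ± 0.13 with POx-SA and 0.57 ± 0.12 with PPLG-4V-SA). Ddx60 was at 1.00, 2.22 and 2.01 CPM without treatment, 9.62, 10.8 and 4.19 with LPS alone and 1.19, 1.13 and 1.06 with POx-SA. It reached 27.3, 30.0 and 28.8 CPM with PPLG-SA, 26.4, 26.7 and 23.0 with PPLG-2V-SA and 27.3, 26.1 and 30.2 with PPLG-4V-SA. All 9 PPLG libraries lay above every other library, and LPS replicate 3 was the lowest of its group (log2 fold change against LPS 1.81 ± 0.23 with PPLG-SA and 1.77 ± 0.23 with PPLG-4V-SA). Ifih1 had its highest mean with LPS alone, 117 ± 34.3 CPM, and Dhx58, which encodes the sensor LGP2, its highest with PPLG-4V-SA, 70.8 ± 3.37 CPM against 37.1 ± 1.65 CPM with LPS. Znfx1, a helicase-like sensor of viral RNA, was at 86.0 ± 9.39 CPM with LPS and 62.0 ± 3.99 CPM with PPLG-SA, a fall (log2 fold change -0.47 ± 0.11).

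Eif2ak2 encodes PKR, the kinase that halts translation on binding double-stranded RNA, and Adar encodes the enzyme that edits adenosines in such RNA. Eif2ak2 was at 59.1, 66.8 and 64.4 CPM without treatment, 107, 131 and 90.5 with LPS alone and 50.7, 40.7 and 39.98 with POx-SA. It was at 115, 123 and 115 CPM with PPLG-SA, 174, 170.4 and 164 with PPLG-2V-SA and 159, 149 and 144 with PPLG-4V-SA. Its POx-SA libraries were the lowest of all, its PPLG-SA libraries overlapped those with LPS alone, and its PPLG-2V-SA libraries were the highest (log2 fold change against LPS 0.63 ± 0.12, adjusted p = 1.88e-04). Adar was at 92.1, 92.3 and 102 CPM without treatment, 200.1, 236 and 184 with LPS alone and 147, 149 and 142 with POx-SA. With the PPLG polymers it stood at 155, 181 and 165 CPM with PPLG-SA, 211, 215 and 199.8 with PPLG-2V-SA and 202, 189.7 and 204 with PPLG-4V-SA. All treated libraries lay above the untreated ones, those with POx-SA below LPS alone, and those with PPLG-2V-SA and PPLG-4V-SA overlapped LPS alone (log2 fold change 1.11 ± 0.10, adjusted p = 5.08e-08 for LPS against untreated).

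The oligoadenylate synthetases make the second messenger that activates the RNA-degrading enzyme RNase L; Oasl1 and Oasl2 are their relatives, and mouse Oasl1 is known to limit translation of Irf7. Oas3 was at 123, 136 and 123 CPM without treatment, 161, 168 and 168 with LPS alone and 88.6, 92.3 and 87.4 with POx-SA. It was at 437, 416 and 452 CPM with PPLG-SA, 409, 434 and 414 with PPLG-2V-SA and 422, 420.3 and 448 with PPLG-4V-SA. The groups fell into an order without overlap, POx-SA below untreated, untreated below LPS and all PPLG libraries above LPS, with the PPLG groups overlapping each other. The log2 fold change was 0.38 ± 0.08, adjusted p = 4.93e-04 for LPS against untreated, and against LPS it was 1.39 ± 0.08, adjusted p = 2.01e-10 with PPLG-SA, 1.34 ± 0.08, adjusted p = 1.89e-10 with PPLG-2V-SA and 1.38 ± 0.08, adjusted p = 2.52e-10 with PPLG-4V-SA. Oasl2 was at 1.13, 1.40 and 1.45 CPM without treatment, 6.46, 7.63 and 8.51 with LPS alone and 1.78, 0.605 and 1.06 with POx-SA. The PPLG polymers gave 33.0, 31.6 and 34.6 CPM with PPLG-SA, 25.9, 24.5 and 23.9 with PPLG-2V-SA and 38.8, 38.6 and 38.1 with PPLG-4V-SA. PPLG-4V-SA gave the highest libraries, PPLG-SA and PPLG-2V-SA lay between them and LPS, and POx-SA overlapped untreated. Against LPS the log2 fold change of Oasl2 was -2.70 ± 0.21, adjusted p = 2.64e-08 with POx-SA and 2.35 ± 0.16, adjusted p = 1.87e-09 with PPLG-4V-SA, the first being -1.46 on log2(FPKM + 1). Oas1a was at 60.6, 66.8 and 64.7 CPM without treatment, 74.6, 82.0 and 103 with LPS alone and 69.3, 54.1 and 77.8 with POx-SA. Its PPLG libraries were at 202, 183 and 208 CPM with PPLG-SA, 115, 119 and 129.8 with PPLG-2V-SA and 208, 201 and 211 with PPLG-4V-SA. It was highest with PPLG-SA and PPLG-4V-SA, which overlapped each other, and intermediate with PPLG-2V-SA, which lay above LPS alone (log2 fold change against LPS 1.19 ± 0.13, 1.25 ± 0.13 and 0.48 ± 0.13, in that order). Oasl1 was at 23.2, 26.3 and 26.1 CPM without treatment, 126, 171 and 153 with LPS alone and 137, 97.7 and 133 with POx-SA. Its levels after the PPLG polymers were 157, 162 and 162 CPM with PPLG-SA, 157, 148 and 158 with PPLG-2V-SA and 208, 192 and 205 with PPLG-4V-SA. All 15 LPS-treated libraries lay far above the untreated ones, and those with POx-SA, PPLG-SA and PPLG-2V-SA overlapped LPS alone (log2 fold change 2.57 ± 0.13, adjusted p = 1.65e-10 for LPS and 2.28 ± 0.13, adjusted p = 3.93e-10 for POx-SA against untreated). Oas2 was at 62.9, 64.5 and 59.0 CPM without treatment, 118, 125 and 115 with LPS alone and 27.6, 22.1 and 21.2 with POx-SA. The PPLG libraries were at 145, 145 and 133 CPM with PPLG-SA, 163, 170.1 and 144 with PPLG-2V-SA and 160.4, 173 and 164 with PPLG-4V-SA. Its POx-SA libraries lay well below the untreated ones (log2 fold change -1.39 ± 0.11, adjusted p = 7.69e-09), and all its PPLG libraries lay above LPS alone.

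The IFIT proteins bind viral RNA and hold it back from translation. Ifit1 was at 3.51, 2.34 and 3.35 CPM without treatment, 10.7, 12.6 and 7.18 with LPS alone and 3.56, 4.91 and 3.10 with POx-SA. It was at 9.99, 11.6 and 9.12 CPM with PPLG-SA, 11.2, 11.3 and 10.3 with PPLG-2V-SA and 18.2, 17.2 and 15.2 with PPLG-4V-SA. PPLG-4V-SA gave the highest libraries, PPLG-SA and PPLG-2V-SA overlapped LPS alone, and POx-SA lay below LPS (log2 fold change against LPS 0.73 ± 0.19, adjusted p = 0.00381 with PPLG-4V-SA and -1.40 ± 0.21, adjusted p = 4.12e-05 with POx-SA). Ifit2 was at 15.8, 20.6 and 20.1 CPM without treatment, 47.4, 36.2 and 33.7 with LPS alone and 27.6, 32.1 and 25.0 with POx-SA. In the PPLG libraries it was at 62.7, 64.7 and 62.1 CPM with PPLG-SA, 45.4, 49.6 and 54.1 with PPLG-2V-SA and 71.8, 84.6 and 76.9 with PPLG-4V-SA. Its libraries with PPLG-SA and PPLG-4V-SA lay above LPS alone and those with PPLG-2V-SA overlapped it. Ifit3 was at 1.25, 1.40 and 0.782 CPM without treatment, 3.87, 2.61 and 4.66 with LPS alone and 2.23, 2.49 and 4.16 with POx-SA. With the PPLG polymers it stood at 4.19, 4.66 and 5.65 CPM with PPLG-SA, 4.70, 6.32 and 6.30 with PPLG-2V-SA and 9.66, 9.99 and 8.62 with PPLG-4V-SA. POx-SA overlapped LPS alone, and PPLG-4V-SA lay above every other group (log2 fold change against LPS -0.32 ± 0.26, adjusted p = 0.338 and 1.34 ± 0.25, adjusted p = 1.88e-04). Ifit3b, its near copy, was low, at a mean of 0.155 ± 0.0593 CPM without treatment and at most 1.97 ± 0.604 CPM, with PPLG-4V-SA.

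Isg15 encodes a ubiquitin-like tag, Herc6 the main ligase that attaches it in the mouse, Usp18 the protease that removes it and that also restrains the interferon receptor, and Trim25 a ligase acting on the RNA sensor RIG-I. Isg15 was at 25.7, 25.4 and 24.9 CPM without treatment, 88.9, 116 and 155 with LPS alone and 46.3, 25.7 and 53.6 with POx-SA. It was at 58.8, 51.5 and 61.1 CPM with PPLG-SA, 49.9, 47.9 and 59.9 with PPLG-2V-SA and 98.9, 81.4 and 90.7 with PPLG-4V-SA. LPS gave the highest mean with a wide spread, POx-SA, PPLG-SA and PPLG-2V-SA all lay below LPS without overlap, and PPLG-4V-SA overlapped it. Against LPS the log2 fold change of Isg15 was -1.52 ± 0.21, adjusted p = 1.82e-05 with POx-SA, -1.07 ± 0.21, adjusted p = 3.09e-04 with PPLG-SA, -1.19 ± 0.21, adjusted p = 1.00e-04 with PPLG-2V-SA and -0.41 ± 0.21, adjusted p = 0.103 with PPLG-4V-SA. The last value became -0.58 (adjusted p = 0.0288) without LPS replicate 1 and 0.10 on log2(FPKM + 1). Usp18 was at 46.0, 50.1 and 52.5 CPM without treatment, 157, 184 and 179 with LPS alone and 20.9, 23.7 and 27.3 with POx-SA. The PPLG polymers gave 85.0, 78.6 and 91.9 CPM with PPLG-SA, 87.9, 88.3 and 97.8 with PPLG-2V-SA and 117, 97.3 and 105 with PPLG-4V-SA. LPS alone stood above every other group, POx-SA below every other group including untreated, and the PPLG groups between untreated and LPS. The log2 fold change of Usp18 was 1.80 ± 0.11, adjusted p = 1.22e-09 for LPS against untreated and, against LPS, -2.85 ± 0.12 with POx-SA, -1.02 ± 0.11 with PPLG-SA, -0.92 ± 0.11 with PPLG-2V-SA and -0.70 ± 0.11 with PPLG-4V-SA. Trim25 was at 922, 908 and 878 CPM without treatment, 1056, 882 and 859 with LPS alone and 884, 911 and 772 with POx-SA. Its PPLG libraries were at 462, 508 and 496 CPM with PPLG-SA, 416, 416 and 378 with PPLG-2V-SA and 446, 453 and 487 with PPLG-4V-SA. By CPM its libraries without treatment, with LPS and with POx-SA overlapped, and all 9 PPLG libraries lay below those 9. Its log2 fold change was 0.05 ± 0.10, adjusted p = 0.709 for LPS against untreated (95% interval -0.16 to 0.26) and, against LPS, -0.93 ± 0.10 with PPLG-SA, -1.21 ± 0.10 with PPLG-2V-SA and -1.01 ± 0.10 with PPLG-4V-SA. By log2(FPKM + 1), however, Trim25 was called higher with LPS than without treatment, at 0.32, adjusted p = 0.00300. Herc6 went from 20.3 ± 2.37 CPM with LPS to 5.36 ± 0.440 CPM with POx-SA and 30.6 ± 0.915 CPM with PPLG-SA.

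Dtx3l and Parp9 encode a ubiquitin ligase complex, Parp14 an enzyme that attaches single ADP-ribose units, and Trim30a a ligase known in the mouse to restrain Toll-like receptor signalling. Parp14 was at 8.89, 9.93 and 10.5 CPM without treatment, 24.5, 35.4 and 17.3 with LPS alone and 26.8, 18.4 and 13.8 with POx-SA. It was at 54.4, 58.6 and 56.0 CPM with PPLG-SA, 106, 114 and 103 with PPLG-2V-SA and 71.8, 64.3 and 70.3 with PPLG-4V-SA. PPLG-2V-SA gave the highest libraries, the other PPLG groups lay between it and LPS, and POx-SA overlapped LPS (log2 fold change against LPS 2.06 ± 0.21, adjusted p = 1.98e-07 with PPLG-2V-SA, 1.13 ± 0.21 with PPLG-SA and 1.42 ± 0.21 with PPLG-4V-SA). Parp9 was at 8.39, 8.29 and 6.14 CPM without treatment, 37.8, 51.2 and 34.8 with LPS alone and 17.5, 19.4 and 18.2 with POx-SA. Its levels after the PPLG polymers were 50.3, 56.6 and 57.7 CPM with PPLG-SA, 74.2, 78.3 and 76.9 with PPLG-2V-SA and 63.3, 63.4 and 60.2 with PPLG-4V-SA. The untreated libraries were the lowest, POx-SA came next, and PPLG-2V-SA was the highest (log2 fold change 2.44 ± 0.15, adjusted p = 8.93e-10 for LPS against untreated). Dtx3l was at 12.8, 9.70 and 12.6 CPM without treatment, 24.9, 29.1 and 17.2 with LPS alone and 20.3, 30.2 and 21.6 with POx-SA. The PPLG libraries were at 52.7, 59.3 and 57.1 CPM with PPLG-SA, 74.9, 74.1 and 66.9 with PPLG-2V-SA and 50.9, 50.3 and 55.2 with PPLG-4V-SA. POx-SA overlapped LPS alone and all PPLG libraries lay above both (log2 fold change against LPS 1.25 ± 0.17 with PPLG-SA, 1.60 ± 0.17 with PPLG-2V-SA and 1.14 ± 0.16 with PPLG-4V-SA). Trim30a was at 38.3, 50.1 and 43.9 CPM without treatment, 89.5, 104 and 67.3 with LPS alone and 27.2, 20.9 and 17.4 with POx-SA. In the PPLG libraries it was at 76.4, 96.3 and 90.4 CPM with PPLG-SA, 128, 119 and 119 with PPLG-2V-SA and 104, 86.0 and 92.2 with PPLG-4V-SA. Its POx-SA libraries lay below the untreated ones (log2 fold change -1.02 ± 0.17, adjusted p = 6.66e-05), and its PPLG-SA libraries overlapped LPS alone. Trim21 was low without treatment, at 1.25, 0.584 and 0.782 CPM without treatment, 5.49, 6.65 and 6.72 with LPS alone and 1.48, 0.605 and 1.62 with POx-SA, and stood at 1.96, 2.72 and 2.07 CPM with PPLG-SA, 5.93, 6.99 and 6.07 with PPLG-2V-SA and 3.69, 4.70 and 4.44 with PPLG-4V-SA. It was high with LPS and PPLG-2V-SA, which overlapped, and lower with PPLG-SA, below both without overlap (log2 fold change against LPS -1.48 ± 0.26, adjusted p = 1.12e-04, and -0.81 on log2(FPKM + 1)).

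Of the restriction factors, Rsad2 encodes viperin, which makes a nucleotide that stops viral RNA synthesis, and its neighbour Cmpk2 a mitochondrial nucleotide kinase. Rsad2 was at 33.8, 38.6 and 38.8 CPM without treatment, 182, 168 and 159 with LPS alone and 55.5, 65.3 and 55.4 with POx-SA. It was at 106, 105 and 113 CPM with PPLG-SA, 47.0, 45.0 and 44.6 with PPLG-2V-SA and 142, 126 and 141 with PPLG-4V-SA. By CPM all groups kept apart in the order untreated, PPLG-2V-SA, POx-SA, PPLG-SA, PPLG-4V-SA and LPS, with no overlap between neighbours. This order depended on the scale. By mean FPKM, PPLG-4V-SA at 49.5 stood above LPS at 48.6, and PPLG-2V-SA at 16.4 above POx-SA at 15.2. The log2 fold change of Rsad2 was 2.19 ± 0.10, adjusted p = 3.14e-11 for LPS against untreated and, against LPS, -1.53 ± 0.09 with POx-SA, -0.65 ± 0.09 with PPLG-SA and -1.90 ± 0.10, adjusted p = 2.16e-11 with PPLG-2V-SA. Cmpk2 was at 4.76, 3.04 and 3.24 CPM without treatment, 10.6, 15.3 and 10.4 with LPS alone and 4.75, 3.25 and 2.68 with POx-SA. With the PPLG polymers it stood at 6.43, 7.31 and 9.30 CPM with PPLG-SA, 17.1, 14.8 and 15.9 with PPLG-2V-SA and 17.4, 15.3 and 15.5 with PPLG-4V-SA. Its PPLG-2V-SA libraries overlapped LPS alone and lay above PPLG-SA, and POx-SA overlapped untreated. Bst2 was at 164, 163 and 136 CPM without treatment, 127, 104 and 192 with LPS alone and 88.8, 104 and 154 with POx-SA. The PPLG polymers gave 377, 314 and 384 CPM with PPLG-SA, 216, 224 and 276 with PPLG-2V-SA and 329, 361 and 365 with PPLG-4V-SA. Untreated, LPS and POx-SA overlapped each other and the PPLG libraries lay above all of them (log2 fold change -0.13 ± 0.20, adjusted p = 0.607 for LPS against untreated and, against LPS, 1.34 ± 0.20, adjusted p = 2.53e-05 with PPLG-SA and 1.32 ± 0.20, adjusted p = 3.49e-05 with PPLG-4V-SA). Ifitm3 was at 313, 314 and 304 CPM without treatment, 393, 361 and 586 with LPS alone and 243, 368 and 451 with POx-SA. Its PPLG libraries were at 517, 466 and 464 CPM with PPLG-SA, 412, 384 and 495 with PPLG-2V-SA and 541, 528 and 519 with PPLG-4V-SA. LPS replicate 3 and the POx-SA libraries were spread widely, and no group with a polymer was called against LPS, with log2 fold changes of -0.33 to 0.25. LPS replicate 3, at 586 CPM, stood far above LPS replicates 1 and 2. All PPLG-SA and PPLG-4V-SA libraries lay above LPS replicates 1 and 2. Tests of Ifitm3 without LPS replicate 3 are not given here, so the lack of a call may rest on that library. Slfn2, a protein known in the mouse to keep immune cells viable, was at 47.6, 53.6 and 50.2 CPM without treatment, 129.8, 179.7 and 184 with LPS alone and 101, 73.6 and 114 with POx-SA. Its levels after the PPLG polymers were 160.3, 152 and 158 CPM with PPLG-SA, 101, 90.3 and 102 with PPLG-2V-SA and 169, 164 and 164 with PPLG-4V-SA. PPLG-2V-SA lay below LPS alone, and PPLG-SA and PPLG-4V-SA overlapped it (log2 fold change against LPS -0.75 ± 0.14, adjusted p = 1.66e-04 with PPLG-2V-SA). Isg20, an exonuclease, had means of 19.1 ± 5.06 CPM with LPS, 7.73 ± 0.312 CPM with POx-SA, 50.9 ± 4.04 CPM with PPLG-SA, 21.97 ± 1.95 CPM with PPLG-2V-SA and 54.5 ± 2.54 CPM with PPLG-4V-SA. Samd9l and Slfn5 ended at 166 ± 6.73 and 63.7 ± 1.49 CPM with PPLG-4V-SA, from 39.8 ± 0.756 and 47.1 ± 5.32 CPM without treatment.

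**Figure D3:**
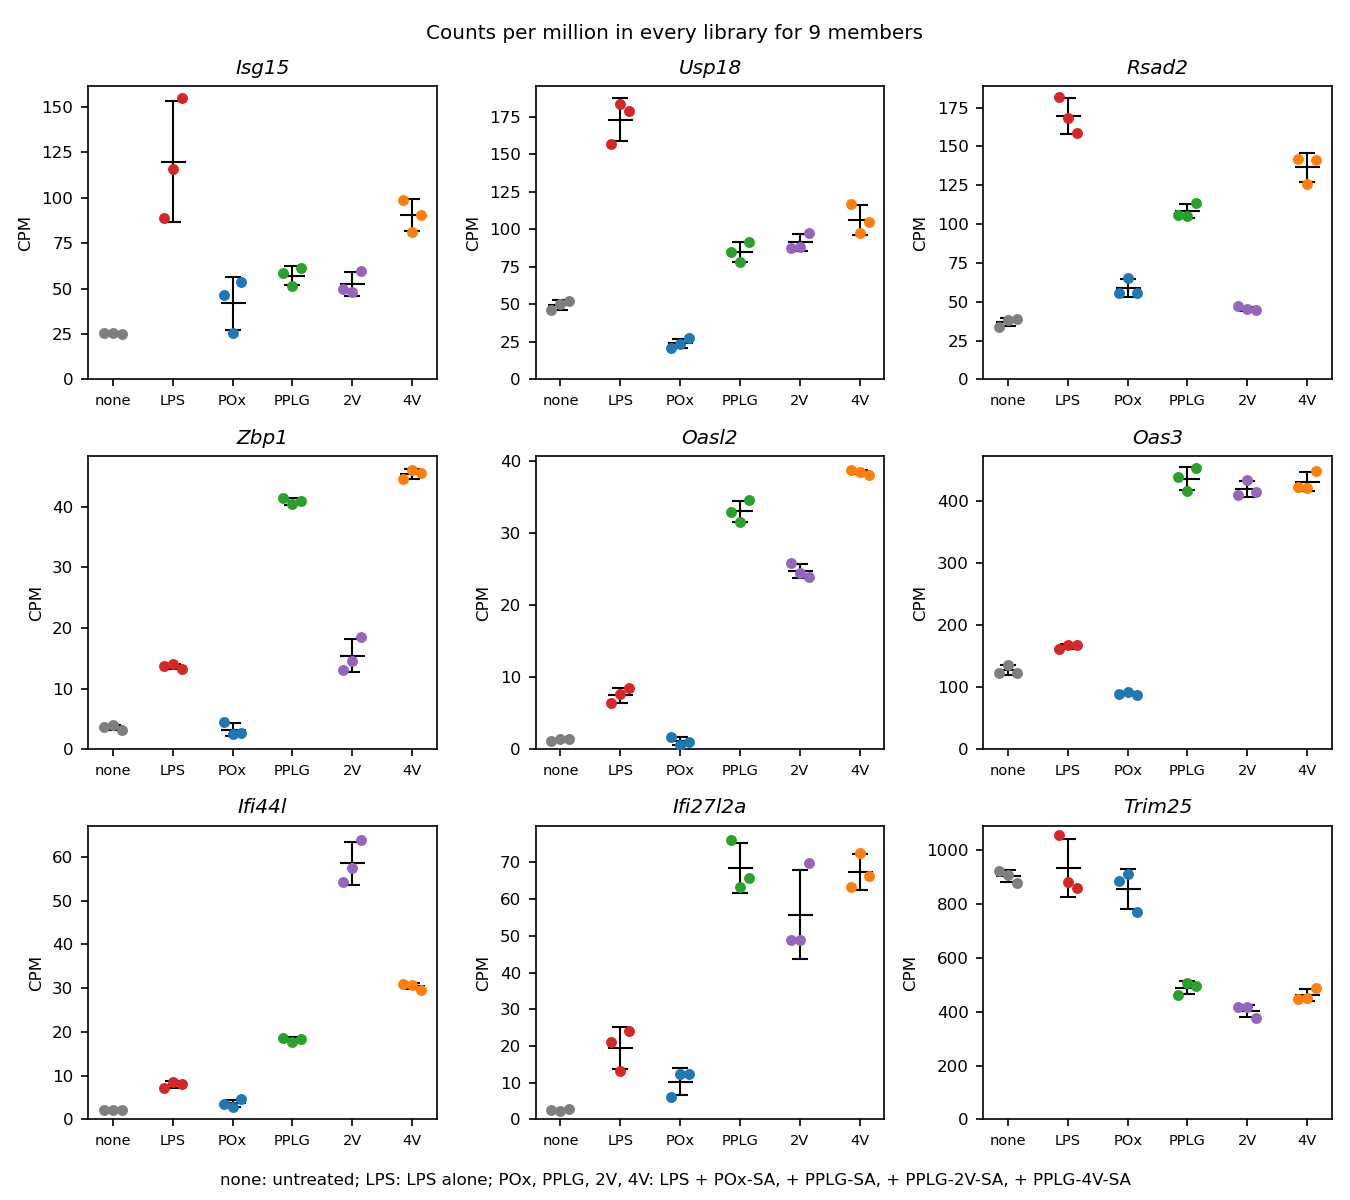
CPM of 9 members in every library (1 point per library, bars are mean ± SD over 3 libraries, linear axes from 0), with groups along the horizontal axis. By mean CPM Isg15, Usp18 and Rsad2 are highest with LPS alone, while by mean FPKM Isg15 and Rsad2 are highest with PPLG-4V-SA. Zbp1 and Oasl2 are high with PPLG-SA and PPLG-4V-SA, Ifi44l peaks with PPLG-2V-SA, and Trim25 is lower in all PPLG libraries than in the other 9.

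Pml and Sp100 encode components of nuclear bodies, Helz2 a helicase-like nuclear co-activator, and Phf11b and Phf11d proteins with a PHD finger. Phf11d was at 4.76, 5.26 and 4.92 CPM without treatment, 30.0, 26.5 and 39.0 with LPS alone and 12.4, 14.7 and 21.0 with POx-SA. It was at 103, 100.1 and 103 CPM with PPLG-SA, 52.5, 57.7 and 70.7 with PPLG-2V-SA and 96.5, 96.8 and 90.9 with PPLG-4V-SA. It was low without treatment, highest with PPLG-SA and PPLG-4V-SA, and its POx-SA libraries lay below LPS alone. Its log2 fold change was 2.67 ± 0.20, adjusted p = 6.97e-09 for LPS against untreated and, against LPS, -0.98 ± 0.17, adjusted p = 1.25e-04 with POx-SA and 1.68 ± 0.16, adjusted p = 1.37e-07 with PPLG-SA. Sp100 was at 31.4, 32.8 and 28.6 CPM without treatment, 37.1, 37.1 and 37.8 with LPS alone and 31.6, 28.8 and 33.1 with POx-SA. The PPLG libraries were at 62.5, 63.4 and 63.3 CPM with PPLG-SA, 55.5, 60.7 and 58.0 with PPLG-2V-SA and 64.3, 63.2 and 62.9 with PPLG-4V-SA. All PPLG libraries lay above the other 9 (log2 fold change against LPS 0.76 ± 0.08 with PPLG-SA). Helz2 was at 102, 103 and 102 CPM without treatment, 262, 325 and 185 with LPS alone and 113, 87.2 and 70.3 with POx-SA. In the PPLG libraries it was at 141, 164 and 156 CPM with PPLG-SA, 217, 212 and 192 with PPLG-2V-SA and 199.96, 194 and 222 with PPLG-4V-SA. It was highest with LPS, and POx-SA and PPLG-SA both lay below LPS without overlap (log2 fold change -1.52 ± 0.17, adjusted p = 1.84e-06 and -0.75 ± 0.17, adjusted p = 0.00110). Pml was at 38.5 ± 4.05 CPM with LPS, 23.1 ± 3.22 CPM with PPLG-SA and 41.4 ± 3.74 CPM with PPLG-2V-SA.

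The remaining 10 members share no single role. Ifi44l, a cytosolic protein with antiviral activity, was at 2.25, 2.10 and 2.12 CPM without treatment, 7.17, 8.60 and 8.11 with LPS alone and 3.64, 2.95 and 4.58 with POx-SA. It was at 18.6, 17.6 and 18.4 CPM with PPLG-SA, 54.4, 57.4 and 64.0 with PPLG-2V-SA and 31.0, 30.6 and 29.6 with PPLG-4V-SA. The groups were ordered without overlap from PPLG-SA through PPLG-4V-SA to PPLG-2V-SA, all above LPS alone. Against LPS the log2 fold change of Ifi44l was 2.88 ± 0.12, adjusted p = 3.09e-12 with PPLG-2V-SA and 1.93 ± 0.12, adjusted p = 8.17e-10 with PPLG-4V-SA. Ifi27l2a was at 2.51, 2.34 and 2.79 CPM without treatment, 21.0, 13.1 and 24.2 with LPS alone and 6.01, 12.2 and 12.5 with POx-SA. With the PPLG polymers it stood at 76.2, 63.4 and 65.8 CPM with PPLG-SA, 48.8, 48.8 and 69.8 with PPLG-2V-SA and 63.2, 72.7 and 66.3 with PPLG-4V-SA. It was lowest without treatment, POx-SA lay below LPS and all PPLG libraries above it (log2 fold change 2.93 ± 0.30, adjusted p = 3.24e-07 for LPS against untreated and 1.82 ± 0.23, adjusted p = 2.91e-06 for PPLG-SA against LPS, the latter 2.41 on log2(FPKM + 1)). Its neighbour Ifi27 was at 152, 168 and 149 CPM without treatment, 115, 117 and 183 with LPS alone and 108, 138 and 217 with POx-SA. The PPLG polymers gave 87.1, 83.5 and 101 CPM with PPLG-SA, 159.8, 163 and 185 with PPLG-2V-SA and 96.4, 104 and 100.2 with PPLG-4V-SA. Ifi27 was already high without treatment, and the PPLG-SA and PPLG-4V-SA libraries lay below the untreated ones (log2 fold change -0.79 ± 0.20, adjusted p = 0.00239 and -0.64 ± 0.20, adjusted p = 0.00925). These calls of Ifi27 were lost on log2(FPKM + 1), at -0.24, adjusted p = 0.291 and -0.01, adjusted p = 0.981. Xaf1 was at 17.5, 18.0 and 20.8 CPM without treatment, 48.9, 47.7 and 64.9 with LPS alone and 7.20, 5.90 and 7.40 with POx-SA. Its PPLG libraries were at 40.2, 39.2 and 42.5 CPM with PPLG-SA, 36.7, 36.3 and 39.7 with PPLG-2V-SA and 51.1, 49.9 and 46.2 with PPLG-4V-SA. LPS gave the highest libraries except those of PPLG-4V-SA, which overlapped it, and POx-SA lay below untreated (log2 fold change -1.46 ± 0.14, adjusted p = 9.60e-08). Shisa5, an endoplasmic reticulum protein, was at 242, 254 and 237 CPM without treatment, 189.5, 164 and 259.6 with LPS alone and 107, 109 and 149.7 with POx-SA. Its levels after the PPLG polymers were 174, 154 and 183 CPM with PPLG-SA, 149, 151 and 159 with PPLG-2V-SA and 161, 173 and 187 with PPLG-4V-SA. The untreated libraries were among the highest, and POx-SA and all PPLG groups were called lower than untreated (log2 fold change -0.52 ± 0.15 with PPLG-SA and -0.68 ± 0.15 with PPLG-2V-SA). These values of Shisa5 on log2(FPKM + 1) were -0.13, adjusted p = 0.408 and -0.15, adjusted p = 0.330. Ifi44 rose from 103 ± 15.0 CPM with LPS to 324 ± 17.2 CPM with PPLG-2V-SA, Lgals3bp, a secreted galectin-binding protein, from 97.8 ± 8.55 to 227 ± 9.82 CPM with PPLG-4V-SA, and Rtp4 fell from 42.6 ± 6.78 to 6.01 ± 1.60 CPM with POx-SA. Ifi35 and Tor3a ranged over group means of 12.5 to 36.9 and 69.7 to 136 CPM.

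Each polymer was also set against the untreated cells, which the 4 comparisons share. With POx-SA 18 members were higher and 15 lower than without treatment (background 30.4% and 27.9%), with a member median of 0.01. Oasl1 and Ifi27l2a were furthest above untreated in that comparison and Xaf1 and Oas2 furthest below. With PPLG-SA 46 were higher and 3 lower (background 35.1% and 32.8%, member median 1.40), with PPLG-2V-SA 46 and 3 (background 38.2% and 35.8%, member median 1.37), and with PPLG-4V-SA 47 and 3 (background 36.7% and 33.6%, member median 1.76). The lower members were Trim25, Ifi27 and Shisa5 with PPLG-SA and with PPLG-4V-SA, and Trim25, Tor3a and Shisa5 with PPLG-2V-SA. The largest rises reached 4.84 ± 0.21, adjusted p = 3.79e-12 for Oasl2 with PPLG-4V-SA, 4.76 ± 0.15, adjusted p = 6.88e-14 for Ifi44l with PPLG-2V-SA and 4.74 ± 0.30, adjusted p = 2.74e-10 for Ifi27l2a with PPLG-SA. Their order depended on the scale, since on log2(FPKM + 1) they were 3.59, 4.62 and 5.53. On log2(FPKM + 1) the counts higher and lower were 19 and 12 members and 5242 and 2767 of all genes (4093 and 3767 by counts) with POx-SA, and 48 and 1 members and 6730 and 2872 of all genes (4730 and 4425 by counts) with PPLG-SA. They were 48 and 1 members and 7185 and 3008 of all genes (5154 and 4825 by counts) with PPLG-2V-SA, and 48 and 1 members and 7250 and 2680 of all genes (4947 and 4526 by counts) with PPLG-4V-SA. The median over all tested genes in these 4 comparisons was 0.03, 0.04, 0.04 and 0.05.

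The polymers were then compared with each other, in 4 pairs. PPLG-SA against POx-SA gave 44 members higher and 2 lower (background 28.3% and 29.5%), with a member median of 1.43 and -0.01 over all tested genes. The widest differences by counts were those of Oasl2 at 4.84 ± 0.20, adjusted p = 4.85e-12, Ddx60 at 4.66 ± 0.29, adjusted p = 6.59e-10 and Zbp1 at 3.66 ± 0.17, adjusted p = 1.69e-11. These were 3.33, 2.37 and 3.61 on log2(FPKM + 1), in another order. The 2 lower members were Trim25 at -0.81 ± 0.10, adjusted p = 2.49e-06 and Ifi27. The 5 members not called were Znfx1, Adar, Isg15, Pml and Tor3a, for which the 95% intervals of the log2 fold change lay between -0.25 and 0.89. On log2(FPKM + 1) 46 members rose and 1 fell, as did 4992 and 2745 of all genes in place of 3810 and 3972.

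PPLG-2V-SA and PPLG-SA differed in both directions, with 14 members higher and 14 lower with PPLG-2V-SA (background 14.7% and 13.2%), and with a member median of -0.04 and 0.02 over all tested genes. Higher with PPLG-2V-SA were Ifi44l at 1.69 ± 0.12, adjusted p = 1.73e-08, Trim21 at 1.49 ± 0.26, adjusted p = 4.11e-04, Cmpk2 at 1.05 ± 0.20, adjusted p = 9.66e-04, Parp14 at 0.93 ± 0.20, adjusted p = 0.00233 and Ifi27 at 0.90 ± 0.20. Lower with PPLG-2V-SA were Zbp1 at -1.40 ± 0.14, adjusted p = 2.16e-06, Ifi204 at -1.32 ± 0.18, adjusted p = 5.63e-05, Rsad2 at -1.25 ± 0.09, adjusted p = 5.92e-08, Isg20 at -1.21 ± 0.13 and Phf11d at -0.76 ± 0.16. Members of 1 class stood on opposite sides, as with Rsad2 and Cmpk2, or Phf11d and Pml, which was higher at 0.84 ± 0.18. By class, 4 of 5 ligases and PARPs were higher and 0 lower, while 3 of 6 oligoadenylate synthetases and 4 of 8 restriction factors were lower. Of the IFIT genes 0 of 4 were called, and the 95% interval of the log2 fold change of Ifit1 was -0.32 to 0.50. On log2(FPKM + 1) 15 members were higher and 11 were lower, as were 2743 and 1309 of all genes in place of 1980 and 1786.

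**Figure D4:**
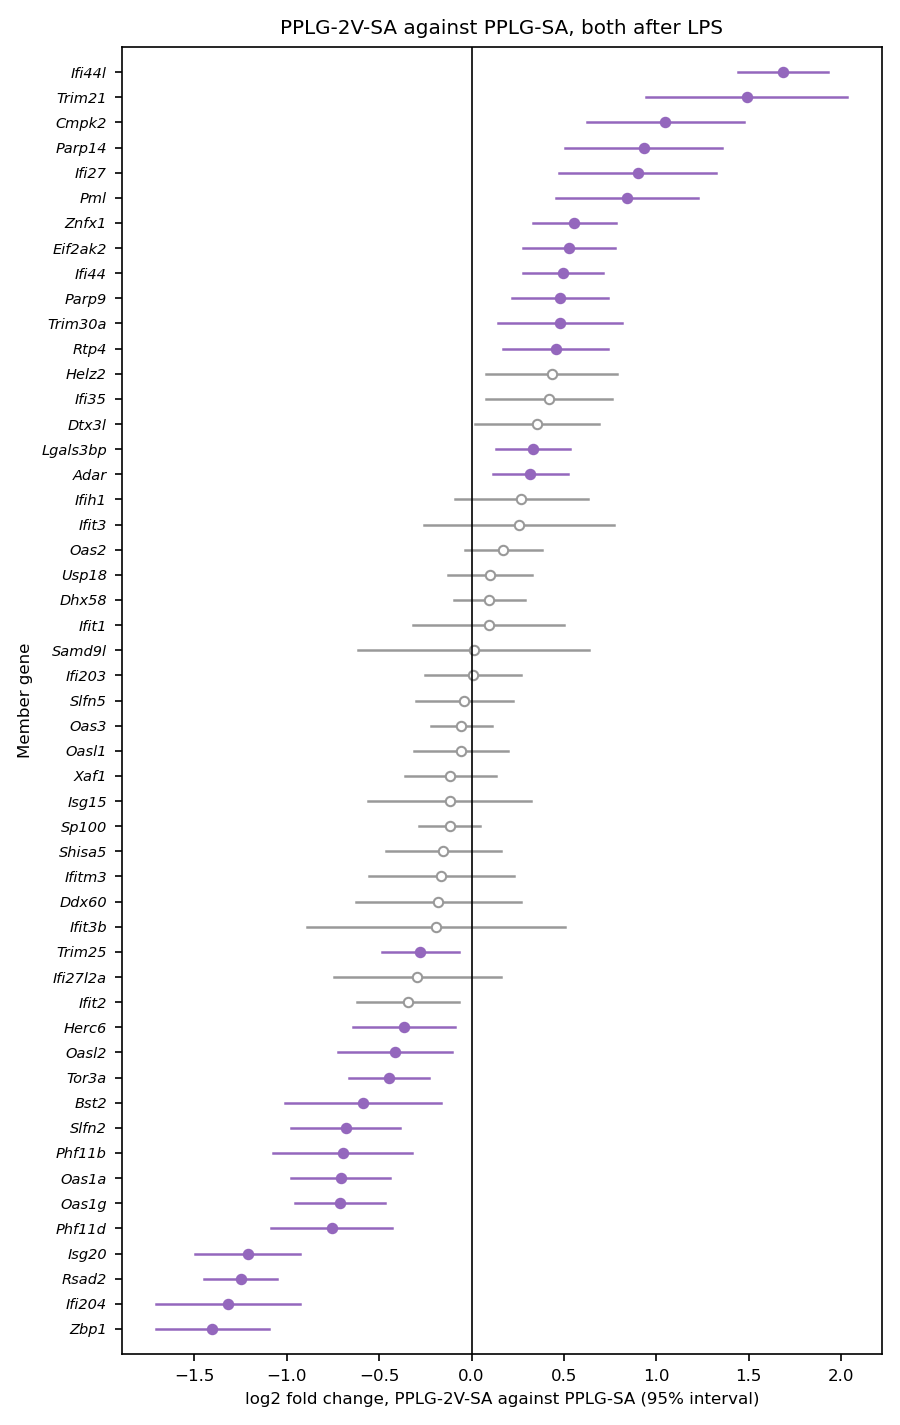
Log2 fold change of each of the 51 members for PPLG-2V-SA against PPLG-SA, both after LPS, sorted by size; points are estimates, lines 95% intervals, and filled coloured points are called at an adjusted p below 0.05. 14 called members lie to the right of 0, led by Ifi44l at 1.69, and 14 to the left, led by Zbp1 at -1.40.

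PPLG-4V-SA and PPLG-SA differed in few members by the fit of all groups, with 5 of 51 called higher and 0 lower (background 1.08% and 0.579%; member median 0.22, all tested genes 0.03). The called members were Cmpk2 at 1.06 ± 0.20, adjusted p = 0.0139, Ifi44l at 0.74 ± 0.12, adjusted p = 0.00786, Znfx1 at 0.48 ± 0.11, Lgals3bp at 0.47 ± 0.10 and Dhx58 at 0.37 ± 0.09. Without PPLG-SA replicate 1 there were 0 calls among members, and without any other of the 6 libraries Ifi44l was called, alone or with Cmpk2. In a fit of these 2 groups alone 26 members were higher and 0 lower. The share of all tested genes in that fit is not given here, and the background above does not apply to it. On log2(FPKM + 1) 10 members were higher and 0 were lower, as were 460 and 106 of all genes in place of 145 and 78. All 3 PPLG-4V-SA libraries lay above all 3 PPLG-SA libraries for 32 of 51 members, where 21.6% of tested genes did so. The IFIT genes Ifit1 and Ifit3 were not called, at 0.72 ± 0.19, adjusted p = 0.0633 and 0.96 ± 0.24, adjusted p = 0.0528. In the fit of these 2 groups alone both were called, at adjusted p = 1.40e-04 and adjusted p = 1.08e-04, and so were they by the DESeq2 test, at adjusted p = 0.0219 and adjusted p = 0.00737.

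PPLG-4V-SA against PPLG-2V-SA gave 16 members higher and 4 lower (background 7.53% and 4.47%; member median 0.22, all tested genes 0.00). The largest differences were those of Rsad2 at 1.58 ± 0.09, adjusted p = 2.99e-09, Zbp1 at 1.55 ± 0.14, adjusted p = 1.04e-06, Isg20 at 1.31 ± 0.13, adjusted p = 3.59e-06 and Ifi204 at 1.27 ± 0.18, adjusted p = 1.39e-04, all higher with PPLG-4V-SA. Ifi44l was lower with it, at -0.95 ± 0.11, adjusted p = 1.70e-05. Ifi44, Ifi27 and Parp14 were the other 3 called lower, each at an adjusted p between 0.0198 and 0.0433. With any 1 library left out, 10 to 13 members were higher and 1 to 2 lower, and in a fit of these groups alone 27 were higher and 9 lower. The share of all tested genes in that last fit is not given here, and the background above does not apply to it.

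The members answer to a signalling route whose other genes were counted from a list of 42, of which 34 passed the filter on low counts. Of the interferon genes themselves, Ifnb1, which encodes interferon beta, had at most 19 reads in any library. Its counts were 3, 7 and 3 without treatment, 3, 2 and 2 with LPS, 4, 3 and 19 with POx-SA, 7, 6 and 2 with PPLG-SA, 3, 2 and 5 with PPLG-2V-SA and 10, 14 and 11 with PPLG-4V-SA. PPLG-4V-SA gave 10 or more reads in each library, and POx-SA replicate 3 held most of its group's reads. Ifna1, Ifna2, Ifna4, Ifna5, Ifng, Ifnl2 and Ifnl3 had 0 reads in all 18 libraries and Ifnab had 2 in all, so transcripts of these ligands were not detectable at this depth at the time of collection.

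The receptor subunits for type I interferon, Ifnar1 and Ifnar2, were present in every group, at means of 75.0 to 102 CPM and 46.2 to 83.9 CPM. Ifngr1, a subunit of the interferon gamma receptor, was at 25.9 ± 2.79 CPM with LPS, 11.1 ± 1.49 CPM with POx-SA and 43.6 ± 4.37 CPM with PPLG-2V-SA. Ifnlr1, the specific subunit of the interferon lambda receptor, had 0 to 2 reads in each library of the untreated, LPS and POx-SA groups and 13 to 56 in each PPLG library. Irf7, the factor that amplifies interferon production, was at 132, 141 and 129 CPM without treatment, 267, 209 and 354 with LPS alone and 70.6, 94.1 and 113 with POx-SA. The PPLG libraries were at 616, 532 and 584 CPM with PPLG-SA, 177, 176 and 222 with PPLG-2V-SA and 519.5, 519.9 and 526 with PPLG-4V-SA. It was high with PPLG-SA and PPLG-4V-SA, and with PPLG-2V-SA it overlapped LPS alone with a lower mean (log2 fold change -0.53 ± 0.17, adjusted p = 0.0121) and lay below PPLG-SA (log2 fold change -1.59 ± 0.17, adjusted p = 3.86e-06). The first of these values was -0.34 with adjusted p = 0.0751 without LPS replicate 3, -0.47 with adjusted p = 0.0527 without PPLG-2V-SA replicate 1, -0.47 with adjusted p = 0.0543 without PPLG-2V-SA replicate 2, and -0.30 with adjusted p = 0.0923 on log2(FPKM + 1). Irf9 was highest with LPS, at 57.7 ± 7.84 CPM, and at 23.1 ± 2.62 CPM with POx-SA and 35.6 ± 3.74 CPM with PPLG-SA. Of the 8 kinases and transcription factors, 5 rose with LPS and 1 fell, and against LPS 0 rose and 7 fell with POx-SA, 2 and 4 with PPLG-SA, 1 and 5 with PPLG-2V-SA, and 2 and 5 with PPLG-4V-SA. The shares of all tested genes that rose and fell were 30.8% and 28.4% with LPS. Against LPS they were 22.2% and 24.1% with POx-SA and 29.2% and 30.7% with PPLG-SA. They were 30.8% and 30.2% with PPLG-2V-SA and 28.0% and 27.1% with PPLG-4V-SA. The 2 of 8 that rose with PPLG-SA were near that background. The 4 of 8 that fell with PPLG-SA, and the 5 of 8 with PPLG-2V-SA and with PPLG-4V-SA, were above it. These differences were not tested.

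Of 10 genes on the way from TLR4 to interferon, 3 rose with LPS, a share near the 30.8% of all tested genes, namely the adaptor gene Ticam1 at 1.99 ± 0.14, adjusted p = 4.15e-09, its partner Ticam2 and Irf3, and 0 fell. Cd14, which hands LPS to TLR4, was at 1415 ± 154 CPM with LPS, 1469 ± 266 CPM with POx-SA and 571 ± 24.0 CPM with PPLG-SA, and fell in the last of these against LPS (log2 fold change -1.31 ± 0.13, adjusted p = 1.33e-07). Ikbke, a kinase that activates IRF3 and IRF7, fell with POx-SA from 129 ± 9.36 to 41.7 ± 10.8 CPM. All 4 nucleic acid sensing genes, Rigi, Mavs, Sting1 and Cgas, rose with LPS, and Rigi, which encodes RIG-I, was at 93.7 ± 12.0 CPM with LPS, 46.3 ± 3.84 CPM with POx-SA and 175 ± 3.37 CPM with PPLG-2V-SA. Among 5 inhibitors of the pathway, Socs3, a suppressor of cytokine receptor signalling, was at 1165, 1143 and 1217 CPM without treatment, 2735, 2849 and 2891 with LPS alone and 380.3, 308 and 354 with POx-SA. It was at 160.1, 178 and 175 CPM with PPLG-SA, 219, 197 and 207 with PPLG-2V-SA and 375, 327 and 364 with PPLG-4V-SA. All polymer libraries lay below the untreated ones, which lay below LPS (log2 fold change against LPS -3.02 ± 0.10, adjusted p = 2.26e-12 with POx-SA, -4.05 ± 0.11 with PPLG-SA, -3.77 ± 0.11 with PPLG-2V-SA and -2.99 ± 0.10 with PPLG-4V-SA). Over all 34 tested genes of the route, 18 rose and 4 fell with LPS, and against LPS 4 rose and 15 fell with POx-SA, 10 and 11 with PPLG-SA, 11 and 11 with PPLG-2V-SA, and 11 and 8 with PPLG-4V-SA. Of all tested genes 30.8% rose and 28.4% fell with LPS, and 22.2% rose and 24.1% fell with POx-SA against LPS. The counts with the PPLG polymers were near the shares of all tested genes, which lay between 27.1% and 30.8%.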

How the data were processed

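Bulk RNA was sequenced in 18 libraries, 6 groups of 3, and a table of counts and a table of FPKM were deposited. The counts are whole reads per gene as the authors deposited them, and the FPKM values are the authors' own scaling to gene length and library size. Per the submitters' processing notes, the build was GRCm39 and CASAVA was among the tools. Which aligner, counter, annotation and strand option were used is not given in the sources used here. Members, the pathway list and the marker lists were chosen with earlier results of these data known.

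Counts were tested with edgeR 4.0.16 in R 4.3.3 (quasi-likelihood F test, TMM factors of 0.812 to 1.15, filterByExpr with a minimum count of 10 and a minimum total of 15), in 1 fit of all 18 libraries with a term per group, 12 residual degrees of freedom and a common dispersion of 0.0219. P-values were adjusted by Benjamini and Hochberg over all 13482 tested genes within each of 13 comparisons, and the threshold was 0.05. The SE is the size of the log2 fold change divided by the square root of F. The steps were tested on simulated data. The alternatives used DESeq2 1.42.0, limma 3.58.1 on log2(FPKM + 1) or log2(FPKM + 0.1), another filter or no filter, fits of 2 groups, a replicate block, and libraries left out. Intervals are 95% and cover the spread between these libraries only.

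Members given in every library were the 3 with the highest mean FPKM in each role class and, per comparison, the 2 largest and 2 smallest called log2 fold changes among those with at least 5 CPM in the higher group; others are given by mean or range, and genes singled out beyond this were chosen after their values were seen. No 2 libraries of a group agreed within sampling noise (chi-square per degree of freedom 2.63 to 83.4), so all were counted. This spread differed by group. It was 2.63 to 3.55 without treatment, 13.1 to 75.6 with LPS, 48.2 to 83.4 with POx-SA and 3.00 to 14.2 with the PPLG polymers. The fit of all groups shares 1 estimate of spread per gene. Its SE and p may therefore be too small for POx-SA against LPS and too large between PPLG polymers. Mitochondrially encoded genes took 2.90 to 7.17% of counts. Same-numbered libraries deviated together in all 3 pairs (correlations 0.205, 0.223 and 0.842) for LPS + POx-SA against LPS and in no other comparison, and the labels do not say that a number marks a shared culture or day. All 51 symbols matched a RefSeq table of build GRCm38, used here only for names and for which genes overlap or neighbour each other. Promoter and protein sequences were not analysed here, and the values of 1 gene of the pathway list are not reported here.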

Additional observations from a re-analysis of the deposited data

How the results depend on the processing

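Of 121 log2 fold changes given for single genes, 112 were called, and 0 of the called values changed sign in any alternative run. The call was lost in at least 1 alternative for 11 of them, which are the 5 members called between PPLG-4V-SA and PPLG-SA, Ifi204 and Irf7 for PPLG-2V-SA against LPS, Ifi27 for PPLG-SA and PPLG-4V-SA against untreated, and Shisa5 for PPLG-SA and PPLG-2V-SA against untreated. Calls were gained on both FPKM scales by Zbp1 for PPLG-2V-SA against LPS and Trim25 for LPS against untreated, and in other alternatives by Isg15 for PPLG-4V-SA against LPS and by Bst2, Ifi27 and Shisa5 for LPS against untreated. In all, 10 called values moved by over 1.5 times on log2(FPKM + 1), those of Ddx60, Oasl2, Trim21, Ifi27l2a and Ifi27. Values not called changed sign as follows, and the cause was not tested. For LPS against untreated, Bst2 was at 0.19 on both FPKM scales (pseudocounts 1 and 0.1) and from -0.41 to 0.055 with 1 library left out, Ifi27 at 0.14 on both FPKM scales, and Trim25 from -0.046 to 0.11 with 1 library left out. Isg15 for PPLG-4V-SA against LPS was at 0.10 on both FPKM scales.

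For the counts of members, the FPKM scales gave 1 lower member in place of 3 for each PPLG polymer against untreated, and 1 in place of 2 for PPLG-SA against POx-SA. PPLG-4V-SA against PPLG-SA gave 10 higher members by the DESeq2 test, 10 on log2(FPKM + 1) and 26 in a fit of these 2 groups, in place of 5. PPLG-4V-SA against PPLG-2V-SA gave 2 lower members on log2(FPKM + 0.1), and 27 higher and 9 lower in a fit of these 2 groups, in place of 16 and 4. For the DESeq2 test and these fits of 2 groups the shares of all tested genes are not given here. Their counts therefore do not set the members apart from other genes. LPS against untreated gave 3 lower members without LPS replicate 3 and POx-SA replicate 3 together, in place of 0. With 1 library left out, the counts higher and lower were 41 to 45 and 0 to 1 for LPS against untreated, 0 and 38 to 43 for POx-SA against LPS, 0 to 2 and 0 for PPLG-4V-SA against PPLG-SA, and 10 to 13 and 1 to 2 for PPLG-4V-SA against PPLG-2V-SA. The other counts stayed within 1.5 times in every alternative run.

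The replicate number as a block pairs libraries only by their number. With it the counts higher and lower were 45 and 0 for LPS against untreated. Against LPS they were 0 and 41 with POx-SA, 24 and 14 with PPLG-SA, 25 and 9 with PPLG-2V-SA and 32 and 5 with PPLG-4V-SA. Against untreated, in the same order of polymers, they were 18 and 17, 46 and 3, 46 and 3, and 47 and 3. They were 45 and 2 for PPLG-SA against POx-SA, 15 and 13 for PPLG-2V-SA against PPLG-SA, 7 and 0 for PPLG-4V-SA against PPLG-SA and 19 and 4 for PPLG-4V-SA against PPLG-2V-SA. Among the single values the block changed the calls of Ifit1 and Ifit3 between PPLG-4V-SA and PPLG-SA, to adjusted p = 0.0446 and adjusted p = 0.0472 in edgeR's test, and these were called in 4 and 6 of 14 alternatives. Fits of 2 groups gave more calls for PPLG-4V-SA against PPLG-SA and against PPLG-2V-SA. They gave fewer in others, such as POx-SA against LPS, with 34 members lower in place of 41. The reason was not tested, and these fits also differ in the genes tested and in scaling. With 3 libraries a group precision is limited, and Ifit3b, Trim21 and Ifnb1 rest on few reads.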

Other observations

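The number of counts per unit of FPKM gives the gene length that the authors' scaling implies, and this length differed between libraries for the same member. Among 26 members with at least 5 FPKM in all libraries, it ran from 0.151 to 0.269 kb for Ifi27l2a (a ratio of 1.77 between the highest and the lowest library) and from 0.858 to 1.37 kb for Isg20 (1.59), and only from 10.6 to 11.1 kb for Helz2 (1.05). For Ifi27l2a the mean was 0.261 kb without treatment, 0.242 kb with LPS and 0.168 to 0.179 kb with the PPLG polymers.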
